A study of Mus musculus with 4 samples.

Results

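The genes described here are 10 p53 target and pro-apoptotic genes of the mouse, Mdm2, Cdkn1a, Ccng1, Gadd45a, Bbc3, Bax, Bik, Trp53inp1, Phlda3 and Eda2r, out of 32285 genes in the count tables. They were selected on measured values of these data, namely levels in Sertoli cells that were higher in testicular organoids (TOs) than in the testis, and were found in the tables by their gene symbols. The question was whether Leydig cells, stroma, macrophages and germ cells of the same TOs shared that difference. Single-cell RNA-seq (scRNA-seq, 10x Genomics 3′ chemistry) was available for 4 libraries, 2 of TOs and 2 of testes, all of unsorted mouse cells.

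The TO libraries came from organoids grown for 28 days from dissociated testis cells of 6-day-old ICR pups. The cells were aggregated in microwells, embedded in basement membrane extract and kept on culture inserts in a serum-replacement medium with follicle-stimulating hormone and testosterone. The testis libraries came from 28-day-old mice. The labels of the dissociation step name day 21 for the TOs, whereas the design text and the methods give day 28. The study describes the testis libraries as biological replicates and the TOs as coming from independent batches, though no label assigns a library to a batch. The p-values measure only the spread between these libraries. Organoid culture and the testis differ in age of the donor cells, culture and cell makeup at once, and these cannot be told apart in this design.

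The transcription factor p53 is stabilised after DNA damage and other stresses and then switches on genes that stop the cell cycle, repair DNA or start apoptosis. Mdm2 is both its target and its negative regulator, which closes a feedback loop. Bbc3 (PUMA) and Bax belong to the BCL2 family and act at the mitochondrion, where Bax opens the outer membrane and BH3-only proteins such as Bbc3 and Bik promote that step. In the testis, p53 is best known for the removal of damaged germ cells, while Sertoli cells are the somatic cells that nurse germ cells inside the tubule.

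The promoters of the members are shown because p53 acts on its targets through such DNA elements. Most members are known as p53 targets, a class defined in part by these elements, so their count among the members is a description and not independent of the choice. Windows of 300 bases, from 250 bases before to 50 bases after the transcription start, were available from RefSeq on GRCm38.p6 for 8 of the 10 members (11 windows). They were searched for the p53 half-site, a palindromic motif of 10 bases that reads alike on both strands. A half-site was present in 5 of the 8 genes, against 9.55% of 27025 genes with a window (8.36% of 32851 windows). Each sequence below is a stretch of the window around the half-site, written 5′ to 3′ on the strand of the gene, with the half-site in capitals.
Bax: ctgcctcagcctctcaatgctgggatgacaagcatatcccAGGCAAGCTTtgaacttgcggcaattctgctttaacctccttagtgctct
Gadd45a: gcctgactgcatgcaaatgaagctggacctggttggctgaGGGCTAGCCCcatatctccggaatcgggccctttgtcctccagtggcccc
Cdkn1a: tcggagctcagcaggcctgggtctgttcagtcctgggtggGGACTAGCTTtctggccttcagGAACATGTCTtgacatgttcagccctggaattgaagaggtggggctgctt
Mdm2: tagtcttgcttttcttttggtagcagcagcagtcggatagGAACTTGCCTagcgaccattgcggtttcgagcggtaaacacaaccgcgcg
Ccng1: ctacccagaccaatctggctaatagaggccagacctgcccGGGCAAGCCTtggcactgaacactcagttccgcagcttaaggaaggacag

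These stretches lie at chr7:45467050-45467139 on the minus strand for Bax, chr6:67037398-67037487 (minus) for Gadd45a, chr17:29090866-29090977 (plus) for Cdkn1a, chr10:117710895-117710984 (minus) for Mdm2 and chr11:40755422-40755511 (minus) for Ccng1. The first half-site began 201 bases before the start site in Bax, 40 in Gadd45a, 73 in Cdkn1a, 186 in Mdm2 and 185 in Ccng1. Cdkn1a alone held 2 half-sites within 13 bases of each other, with 12 bases between them, an arrangement found in 20 of the 27025 genes (0.0740%). No half-site was found in the windows of Bbc3, Phlda3 and Eda2r, or in a second window of Cdkn1a at chr17:29093519-29093818. This says only that the motif is absent from these windows. Trp53inp1 and Bik were not searched.

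After doublet removal and limits of 1000 and 5000 genes, 20000 UMIs and a 10% mitochondrial share per cell, 37898 of 51139 barcodes remained (8713 to 9867 per library), out of libraries of 74988295 to 119966959 UMIs. Cells were clustered without the member genes, and clusters were named for the cell type whose markers they resembled. Sertoli cells numbered 263 to 1563 per library, Leydig cells 341 to 1695, stroma (peritubular myoid and interstitial cells) 847 to 5273, macrophages 148 to 684, spermatogonia-like cells 220 to 597 and spermatocyte-like cells 245 to 861. Endothelial cells are not compared, because Pecam1 and Flt1 were at 0 UMIs in the TO cells of that name. Spermatid-like cells numbered 63 and 53 in the TOs against 5653 and 6714 in the testes and are not compared either. The 6 summed spermatid transcripts that mark free RNA reached 1725 to 9239 CPM in the 6 compared types of the testis libraries and at most 2.50 CPM in the TO libraries. Beside these, 30 to 55 cell barcodes were shared between each pair of libraries.

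Levels are given in CPM, the UMIs of a gene summed over all cells of a type in a library and scaled to a common total of UMIs, always in the order TO replicate 1, TO replicate 2, testis replicate 1, testis replicate 2. A gene's CPM cannot separate a change in every cell from a change in a few cells. Changes are log2 fold changes of TO over testis with their standard error from edgeR, and a gene was called when its Benjamini-Hochberg adjusted p over all genes of the type was below 0.01 and its absolute log2 fold change above 1. Genes with at least 5 times the CPM in the other cells of either condition were left out of a type's test, because free RNA could carry them.

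In Sertoli cells, on which the members were chosen, the 2 TO libraries exceeded both testis libraries for 9 of the 10 genes, against 32.8% of all genes of at least 1 CPM on average, and nothing is read from this comparison. Of the 9 members that could be fitted, 5 were past the thresholds in the higher direction, where 7.51% of the 12698 genes were called higher and 17.2% lower. These values are descriptions only.
Among the fitted members, the largest differences were in Bbc3 and Ccng1. Bbc3, which encodes the BH3-only protein PUMA, stood at 40.7, 38.7, 1.56 and 2.90 CPM (592, 288, 4 and 4 UMIs), a log2 fold change of 4.31 ± 0.33. Ccng1, a cyclin G gene, stood at 109, 78.6, 8.94 and 5.79 CPM (log2 fold change 3.64 ± 0.27). Both genes were separated by a wide margin, with no TO library near a testis library.
Gadd45a, a growth arrest and DNA damage gene, was at 171, 161, 22.5 and 17.4 CPM (3.07 ± 0.19), Phlda3, which encodes an inhibitor of Akt, at 69.6, 37.5, 11.3 and 3.62 CPM (2.73 ± 0.46), and Bax at 669, 551, 110 and 114 CPM (2.48 ± 0.17). Eda2r, a receptor of the tumour necrosis factor receptor family, was counted 301 and 105 times in the TO libraries (20.7 and 14.1 CPM) and not at all in the testis libraries, at least 24.3-fold higher with a floor of 3 UMIs over both testis libraries. It was left out of the fit.
The other 4 did not pass both thresholds for a call. Trp53inp1, a stress protein of autophagy and cell death, stood at 33.1, 19.2, 10.9 and 11.6 CPM (1.27 ± 0.33). Cdkn1a, the cyclin-dependent kinase inhibitor p21, stood at 189, 158, 84.0 and 97.0 CPM (0.98 ± 0.17), just under the fold threshold, the only one it missed. Mdm2 stood at 121, 93.7, 85.5 and 81.1 CPM (0.40 ± 0.17), and Bik, a BH3-only gene, at 91.6, 112, 99.5 and 103 CPM (0.06 ± 0.18).
In the cells on which Bik was chosen, its TO and testis libraries overlapped. Median UMIs per Sertoli cell were 10018, 11340, 6121 and 2838, and the 10 summed immediate-early genes, which also respond to tissue dissociation, stood at 1549, 1420, 537 and 315 CPM. Their part in the values was not tested.

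**Figure D1:**
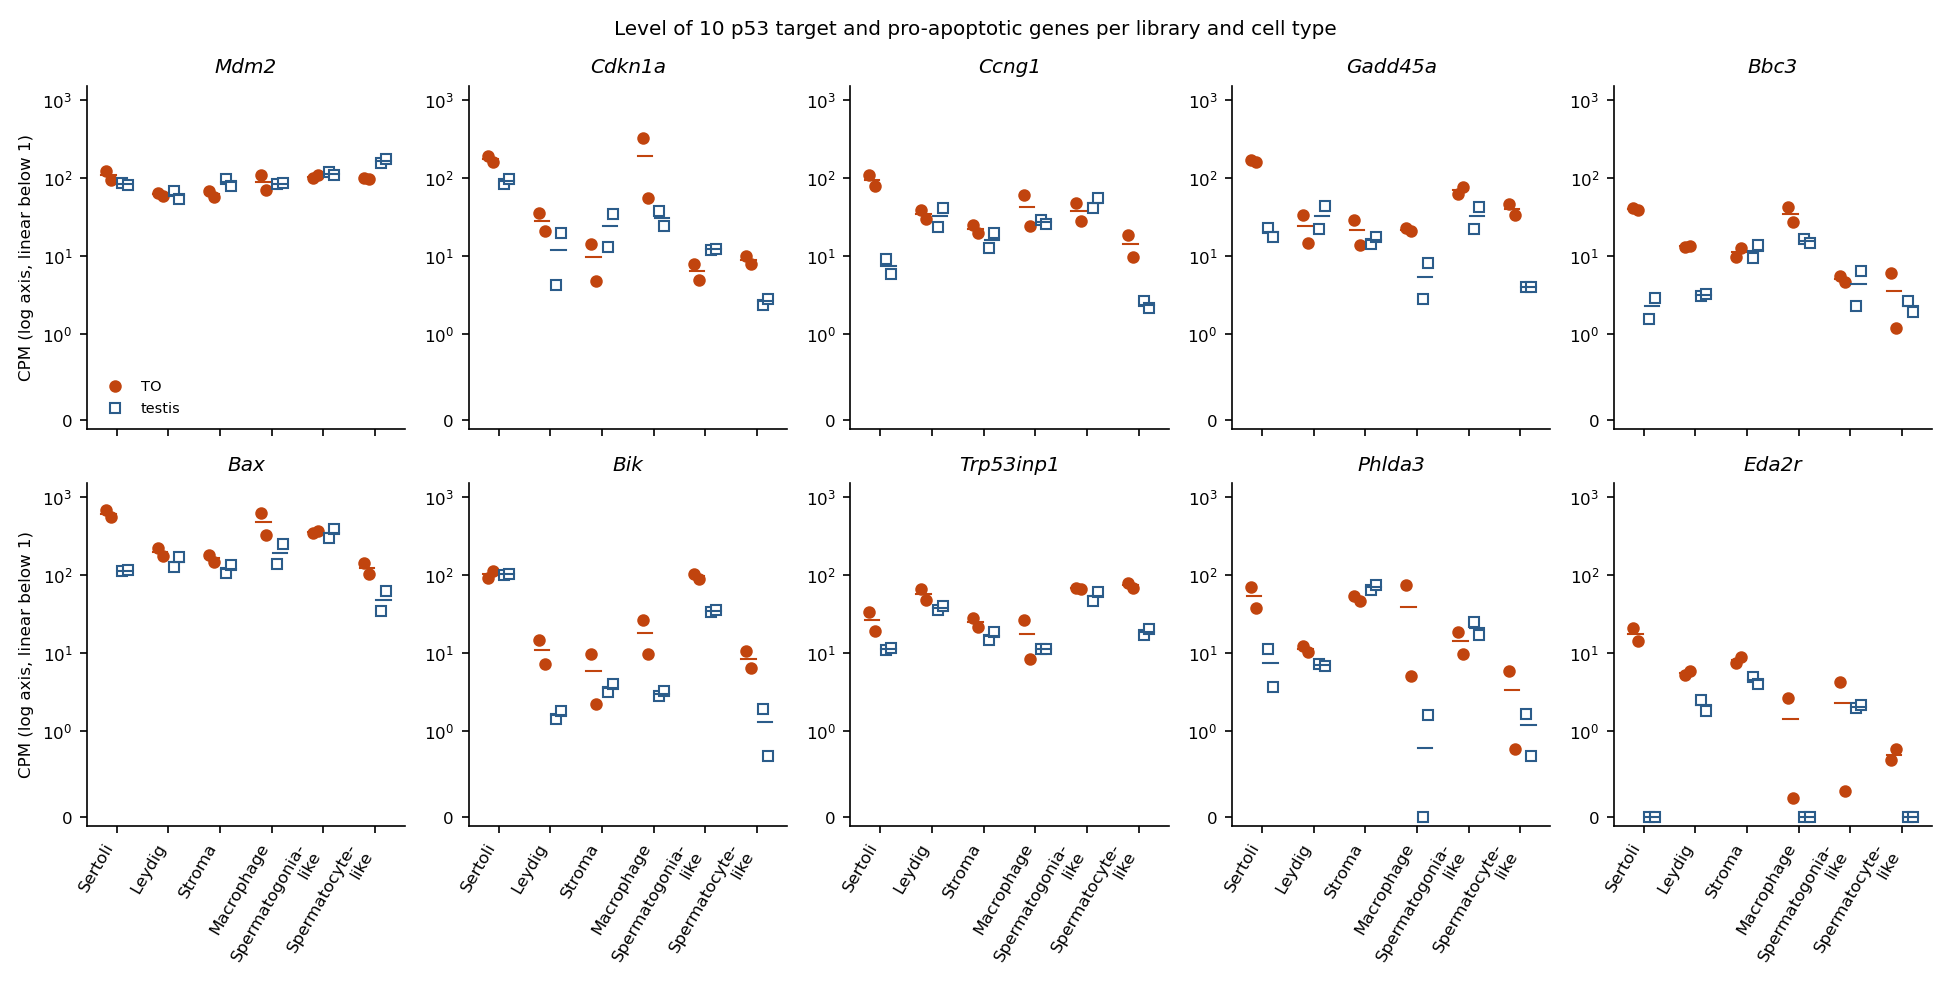
Level of each of the 10 genes in CPM of summed UMIs (log axis, linear below 1) in 6 cell types, with 1 point per library (filled circles for the 2 TO libraries, open squares for the 2 testis libraries) and short lines for their means. In Sertoli cells Bbc3 was at 40.7 and 38.7 CPM in TOs against 1.56 and 2.90 CPM in testes, while in stroma its 4 points lay between 9.28 and 13.5 CPM.

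In Leydig cells, none of the 9 members that could be fitted was called in either direction with edgeR, where 0.262% of 12200 genes were called higher and 0.656% lower. At an unadjusted p under 0.05, 2 of the 9 passed (Bbc3 and Eda2r), as did 27.8% of all genes, and DESeq2 called 1 higher (Bbc3), as it did 3.10% of all genes. The members' median log2 fold change was 0.42, against 0.02 for all genes tested. Both TO libraries were above both testis libraries for 7 of the 10, against 34.8% of all genes of at least 1 CPM on average.
Bbc3 came closest to a call. It stood at 12.9, 13.4, 3.07 and 3.24 CPM, with no overlap (log2 fold change 1.90 ± 0.33, adjusted p 0.0241), and the TO level was below the 40.7 and 38.7 CPM of TO Sertoli cells. Eda2r stood at 5.23, 5.77, 2.51 and 1.77 CPM (1.20 ± 0.44, adjusted p 0.143), again without overlap. Cdkn1a was the most scattered member here, at 34.9, 20.9, 4.18 and 19.4 CPM (1.11 ± 0.63, adjusted p 0.298), with the lower TO library near the higher testis library.
Bax stood at 219, 173, 128 and 167 CPM (0.26 ± 0.25, adjusted p 0.522), Trp53inp1 at 64.8, 47.5, 35.7 and 39.7 CPM (0.42 ± 0.24, adjusted p 0.290) and Phlda3 at 12.3, 10.3, 7.25 and 6.77 CPM (0.53 ± 0.31, adjusted p 0.305). Mdm2, Ccng1 and Gadd45a overlapped between the conditions, with log2 fold changes of -0.12 ± 0.22, -0.06 ± 0.31 and -0.58 ± 0.48. The direction of Gadd45a was thus opposite to that in Sertoli cells, but its adjusted p was 0.464.
Bik stood at 14.4, 7.16, 1.39 and 1.77 CPM and was left out of the test. With no gene left out, its log2 fold change was 2.68 ± 0.57 (adjusted p 0.0138), which is not a call. Its TO levels were 15.7% and 6.37% of those in TO Sertoli cells, where the 6 summed Sertoli markers in TO Leydig cells were at 3.68% and 2.25% of their Sertoli level. The part of Sertoli cell RNA in the Bik value was not tested.

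In stroma, the support cells around and between the tubules, no member was called in either direction by edgeR or DESeq2, and 2 of the 8 that could be fitted (Bax and Trp53inp1) passed an unadjusted p under 0.05, as did 44.8% of all genes. DESeq2 called 3.42% of all genes higher. Here 2.45% of 15341 genes were called higher and 17.3% lower. The members' median log2 fold change was 0.48, against 0.06 for all genes. Both TO libraries were above both testis libraries for 4 of the 10 (Bax, Trp53inp1, Ccng1 and Eda2r), against 32.5% of all genes of at least 1 CPM on average. They were below both for Mdm2 and Phlda3. In interstitial cells alone, 5 members were above and 4 below, against 29.2% and 39.4% of all genes of that level. In myoid cells alone, 5 were above and 1 below, against 35.3% and 39.0%. No member was called in either of these, tested apart as alternatives chosen after seeing the data.
Bbc3, at 9.71, 12.7, 9.28 and 13.5 CPM, differed by less than the spread between libraries (0.03 ± 0.33, adjusted p 0.955). In interstitial cells it stood at 12.4 to 14.8 CPM in TOs and 15.7 to 22.3 CPM in testes. In myoid cells the direction was opposite, at 7.17 to 8.99 CPM in TOs and 4.76 to 6.06 CPM in testes. In all stroma, Bax stood at 180, 148, 104 and 135 CPM (0.49 ± 0.20, adjusted p 0.104) and Trp53inp1 at 27.7, 21.3, 14.5 and 18.6 CPM (0.60 ± 0.25, adjusted p 0.107). Their groups did not overlap, but the gap between the nearest TO and testis libraries was small.
Mdm2 stood at 66.6, 55.9, 96.2 and 77.8 CPM (-0.48 ± 0.21, adjusted p 0.123) and Phlda3 at 53.3, 46.5, 64.7 and 73.0 CPM (-0.43 ± 0.18, adjusted p 0.117). These 2 members leaned the other way from Sertoli cells without passing the test. Mdm2 stood at 126 CPM in testis spermatid-like cells (both libraries pooled), above its level in testis stroma. The part of free spermatid RNA was not tested. The remaining fitted members were Ccng1 (0.53 ± 0.28, adjusted p 0.183), Gadd45a (0.47 ± 0.37, adjusted p 0.363) and Eda2r (0.88 ± 0.38, adjusted p 0.116).
Cdkn1a, at 14.2, 4.72, 12.997 and 34.3 CPM, and Bik, at 9.50, 2.20, 3.09 and 4.02 CPM, were left out of the test. With no gene left out their log2 fold changes were -1.22 ± 0.59 (adjusted p 0.145) and 0.79 ± 0.74 (adjusted p 0.427). The pooled ratio of Cdkn1a was 0.202 in interstitial cells (counting interval 0.162 to 0.254) and 1.11 in myoid cells (0.733 to 1.73). For Gadd45a these ratios were 3.22 (1.90 to 5.92), on 14 UMIs in testis interstitial cells, and 0.999 (0.789 to 1.28). The immediate-early genes summed to 11091, 5665, 2800 and 1619 CPM in stroma, the highest of the 6 types in every library, and their part was not tested.

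**Figure D2:**
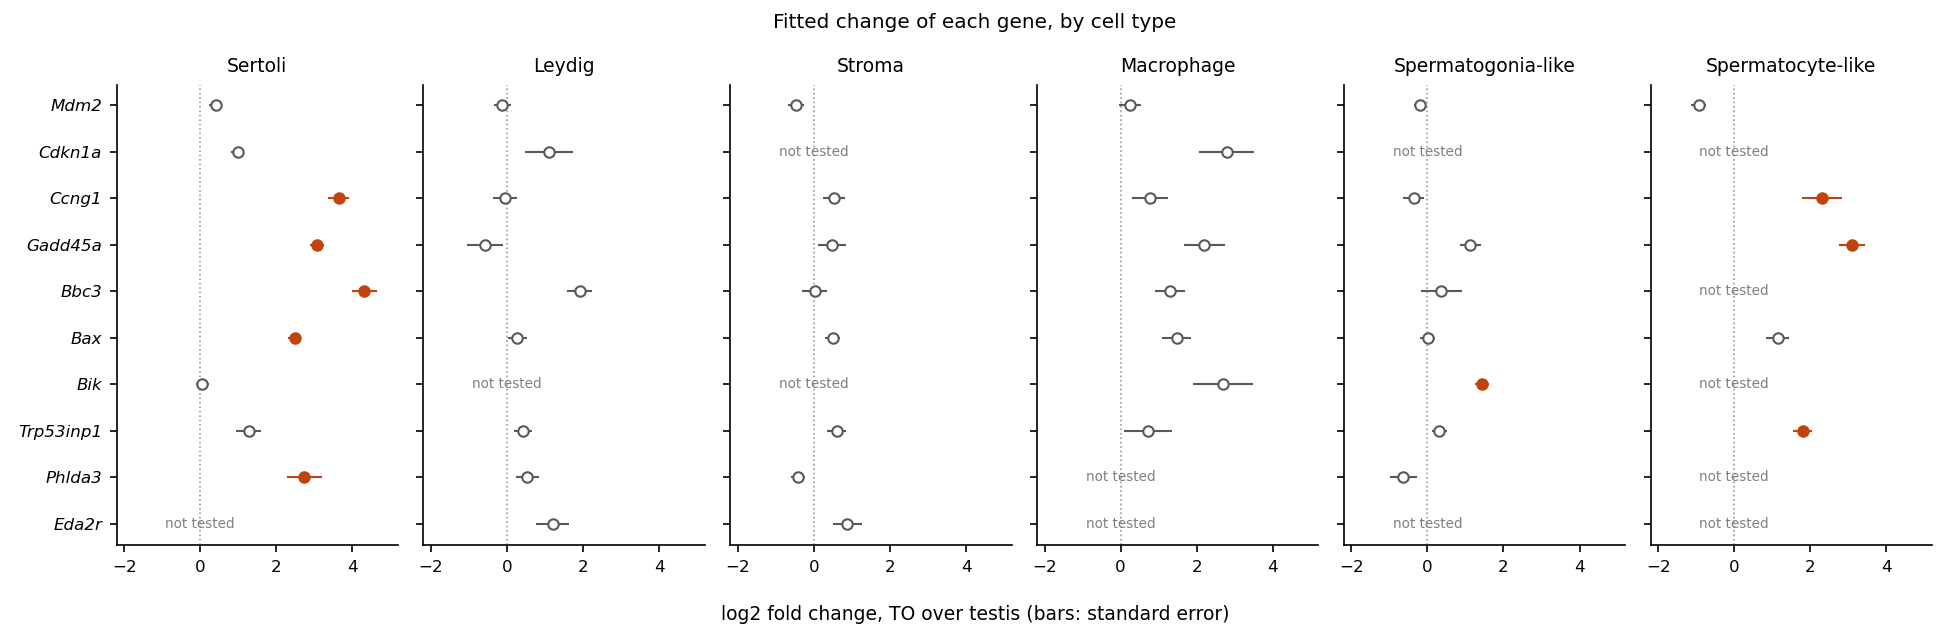
Log2 fold change of TO over testis for each gene (points) with its standard error (bars) from edgeR in 6 cell types. Filled points passed adjusted p below 0.01 and a log2 fold change above 1, and genes left out of a type's test are marked as not tested. Outside Sertoli cells the filled points were Bik in spermatogonia-like cells (1.43) and Gadd45a, Ccng1 and Trp53inp1 in spermatocyte-like cells (3.10, 2.31 and 1.80).

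In macrophages, the resident immune cells, none of the 8 members that could be fitted was called with edgeR, while 5 passed an unadjusted p under 0.05, as did 33.2% of all genes, and DESeq2 called 1 higher (Bax), as it did 2.26% of all genes. In this type 2.56% of 9896 genes were called higher and 12.9% lower. The members' median log2 fold change was 1.38, against 0.07 for all genes. Both TO libraries were above both testis libraries for 7 of the 10, against 19.0% of all genes of at least 1 CPM on average. Eda2r, counted among the 7, was below that floor.
The testis macrophages and TO macrophages fell almost entirely into separate clusters. One cluster held 261, 683, 3 and 0 cells of the 4 libraries and the other 2, 1, 230 and 148, so a comparison of TO with testis is also one of these clusters.
Cdkn1a stood at 326, 55.2, 37.2 and 24.0 CPM (2.79 ± 0.72, adjusted p 0.0161). Most of that difference came from TO replicate 1, and without that library the log2 fold change was 1.03. Bax stood at 619, 324, 139 and 247 CPM (1.47 ± 0.39, adjusted p 0.0179), with TO replicate 1 again the highest.
Gadd45a was at 22.3, 20.7, 2.75 and 8.01 CPM (2.20 ± 0.54, adjusted p 0.0120) and Bbc3 at 41.5, 27.1, 16.5 and 14.4 CPM (1.30 ± 0.40, adjusted p 0.0415). In both the TO libraries stood clear of the testis libraries, and in Gadd45a the 2 TO libraries were close together. Gadd45a rests on 2 and 5 UMIs in the testis libraries.
Bik was at 26.5, 9.55, 2.75 and 3.20 CPM (2.69 ± 0.78, adjusted p 0.0306) on 51, 42, 2 and 2 UMIs, a pooled ratio of 4.96 with a counting interval of 1.88 to 18.6 (95%, counting error only). Phlda3 was counted 141, 22, 0 and 1 times and was left out of the test, with a pooled ratio of 34.8 and a counting interval of 6.16 to 1383. Its TO replicate 1 level of 73.2 CPM lay far above the 5.00 CPM of TO replicate 2.
Mdm2 (0.25 ± 0.30, adjusted p 0.612), Trp53inp1 (0.72 ± 0.63, adjusted p 0.468) and Ccng1 (0.78 ± 0.47, adjusted p 0.285) overlapped between conditions, and Eda2r had 6 UMIs in all. The summed Sertoli markers in macrophages were at 3.81% and 1.39% of their Sertoli level in the TO libraries and 0.991% and 0.956% in the testis libraries. The Gadd45a level in TO macrophages was 13.1% and 12.8% of that in TO Sertoli cells, and the part of Sertoli cell RNA was not tested. The immediate-early genes summed to 4332, 2013, 2276 and 1261 CPM in macrophages, also highest in TO replicate 1, and their part was not tested either.

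In spermatogonia-like cells, the mitotic germ cells, 1 of the 8 fitted members was called higher with edgeR and none lower, where 0.206% of 12139 genes were called higher and 8.58% lower. That member was Bik, which stood at 104, 88.2, 33.3 and 35.5 CPM (log2 fold change 1.43 ± 0.19, adjusted p 0.000398). Its TO and testis libraries did not overlap, and the TO level was 113% and 78.4% of that in TO Sertoli cells. The members' median log2 fold change was 0.16, against 0.01 for all genes. Both TO libraries were above both testis libraries for 3 of the 10, against 27.1% of all genes of at least 1 CPM on average.
Gadd45a stood at 60.9, 76.8, 22.0 and 41.9 CPM, without overlap, and missed the call (1.13 ± 0.29, adjusted p 0.0240). In cells without a UMI of a cell division gene its log2 fold change was -0.28. That subset held only 68, 32, 56 and 23 of the 597, 370, 591 and 220 cells, and the part of cell division was not tested. Trp53inp1, at 68.4, 66.0, 46.0 and 60.4 CPM, differed less (0.31 ± 0.19, adjusted p 0.358).
Bax, at 340, 364, 294 and 389 CPM, showed no difference beyond the spread (0.00 ± 0.19, adjusted p 0.995). Bbc3, at 5.48, 4.61, 2.27 and 6.39 CPM, was also within it (0.36 ± 0.54, adjusted p 0.735). Both pro-apoptotic genes overlapped between the conditions.
Mdm2 (-0.19 ± 0.17, adjusted p 0.527), Ccng1 (-0.36 ± 0.27, adjusted p 0.448) and Phlda3 (-0.63 ± 0.36, adjusted p 0.308) had fitted changes below 0. Cdkn1a, at 7.92, 4.91, 11.97 and 12.1 CPM, was left out of the test, and Eda2r had too few UMIs. As in macrophages, clusters differed between the conditions, since 1 of the clusters held 381, 282, 15 and 5 cells, another 2, 0, 405 and 154, and a mixed one 214, 88, 171 and 61.

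In spermatocyte-like cells, the germ cells in meiosis, 3 of the 5 fitted members were called higher (Gadd45a, Trp53inp1 and Ccng1) and none lower, where 10.5% of 11342 genes were called higher and 19.2% lower. DESeq2 called 2 of the 5 higher, as it did 10.0% of all genes. The members' median log2 fold change was 1.80, against -0.02 for all genes. Both TO libraries were above both testis libraries for 7 of the 10, against 40.5% of all genes of at least 1 CPM on average. Eda2r, counted among the 7, was below that floor, with 3 UMIs in the TO libraries and 0 in the testis libraries.
Gadd45a stood at 46.6, 33.1, 4.00 and 3.99 CPM on 71, 84, 17 and 17 UMIs (3.10 ± 0.35, adjusted p 0.000694). Trp53inp1 stood at 79.4, 67.8, 17.0 and 19.95 CPM (1.80 ± 0.24, adjusted p 0.00132), and the TO level was 240% and 353% of that in TO Sertoli cells. Ccng1 stood at 18.4, 9.46, 2.59 and 2.11 CPM on 28, 24, 11 and 9 UMIs (2.31 ± 0.52, adjusted p 0.00952).
In all 3 genes the TO libraries were clear of the testis libraries. With TO replicate 1 or TO replicate 2 left out, the median log2 fold change of the fitted members was 1.64 or 1.58, but in neither case did all 3 calls hold. The Gadd45a and Ccng1 levels in TO spermatocyte-like cells were 27.3%, 20.6%, 16.9% and 12.04% of those in Sertoli cells of the same 2 libraries, where the Sertoli markers were at 4.505% and 1.43%. The immediate-early genes summed to 272, 147, 43.8 and 34.5 CPM. The part of neither was tested.
Bax stood at 140, 103, 34.4 and 61.5 CPM (1.14 ± 0.30, adjusted p 0.0164), without overlap and short of the threshold. Mdm2 went the other way, at 99.1, 97.0, 154 and 175 CPM (-0.94 ± 0.20, adjusted p 0.00828), and missed the fold threshold. It was called lower in 2 alternatives with the same thresholds, with genes left out from 2 times the CPM of other cells and with doublets kept. Among the members fitted in the 6 types, no other change was further below 0. In testis spermatid-like cells Mdm2 stood at 126 CPM (both libraries pooled), and the part of free spermatid RNA was not tested.
Bbc3, Cdkn1a, Phlda3, Eda2r and Bik had few UMIs or were left out. With no gene left out, Bik had a log2 fold change of 2.45 ± 0.63 (adjusted p 0.00913) and Cdkn1a one of 1.57 ± 0.51 (adjusted p 0.0268). The spermatocyte-like clusters held different shares of cells in the 2 conditions. The best-filled cluster held 157, 210, 272 and 186 of the 245, 268, 804 and 861 cells. Within it, an alternative chosen after seeing the data, 1 member was called higher, as were 0.406% of all genes. The members' median log2 fold change within it was 0.82, against -0.01 for all genes. Dmc1 and Dazl were among the 10 leading genes of that cluster. A comparison of TO with testis over all spermatocyte-like cells is thus also one of differently filled clusters.

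**Figure D3:**
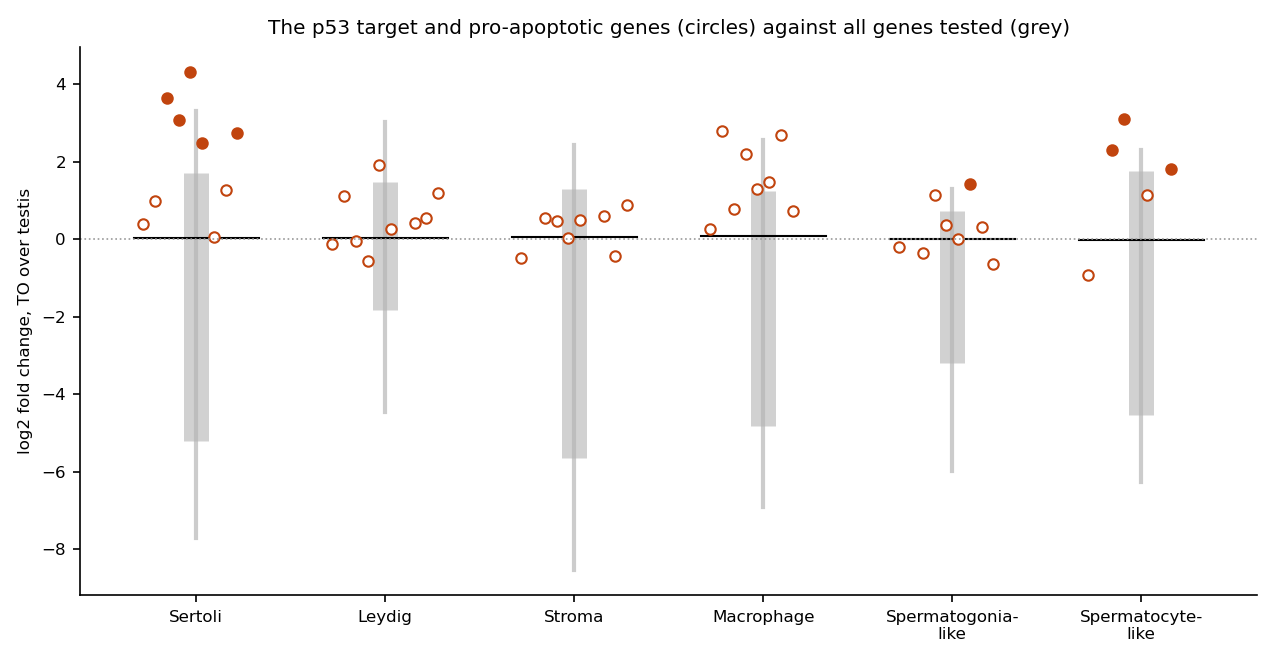
Log2 fold change of TO over testis for the members that could be fitted (circles, filled when called higher) beside all genes tested in each of 6 cell types (grey, with the thick bar from the 5th to the 95th percentile, the thin bar from the 1st to the 99th and the black line at the median). The members' medians were 2.48 in Sertoli cells, where they were chosen, 0.42 in Leydig cells, 0.48 in stroma, 1.38 in macrophages, 0.16 in spermatogonia-like and 1.80 in spermatocyte-like cells, with the medians of all genes between -0.02 and 0.07.

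Whether the change of each member differed between Leydig cells, stroma, macrophages, spermatogonia-like and spermatocyte-like cells was tested in 1 edgeR fit over the 20 sums, with library as a block and without leaving out genes higher in other cells. It differed at an adjusted p below 0.05 for 7 of the 10 members, where 44.5% of 17863 genes did. The adjusted p was 0.000587 for Mdm2, 0.000667 for Cdkn1a, 0.00102 for Gadd45a, 0.0013 for Bax, 0.00253 for Ccng1, 0.027 for Phlda3 and 0.0401 for Bbc3. Trp53inp1 (0.0651), Bik (0.120) and Eda2r (0.501) did not pass.

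Among 7 types, with stroma split into interstitial and peritubular myoid cells, Sertoli cells had the highest mean level in TOs for 7 members (Bbc3, Bax, Gadd45a, Mdm2, Ccng1, Eda2r and Bik), macrophages for Cdkn1a, interstitial cells for Phlda3 and spermatocyte-like cells for Trp53inp1. In testes, Sertoli cells led for 2 (Cdkn1a and Bik), interstitial cells for Bbc3, Phlda3 and Eda2r, spermatogonia-like cells for Bax, Trp53inp1 and Ccng1, Leydig cells for Gadd45a and spermatocyte-like cells for Mdm2. In TOs the leading type stood above the next without overlap for Gadd45a (161 to 171 CPM against 60.9 to 76.8 CPM in spermatogonia-like cells), Ccng1 (78.6 to 109 CPM against 24.3 to 60.8 CPM in macrophages) and Eda2r (14.1 to 20.7 CPM against 7.92 to 8.43 CPM in myoid cells). For the other 7 members the ranges of the first and the next type overlapped, as for Bbc3, where TO macrophages at 27.1 to 41.5 CPM reached the Sertoli range. The members were chosen for higher levels in TO Sertoli cells, so the places of Sertoli cells in TOs are not independent of that choice. Nothing is read from them, and the share of all genes led by TO Sertoli cells was not computed. The 5 genes whose pattern over the 36 sums of 4 libraries and all 9 named types, endothelial and spermatid-like cells included, was most like the members' mean were Inppl1 (Pearson r 0.865), Mat2b (0.851), Cdk9 (0.844), Ppp2ca (0.841) and Egln1 (0.840), out of 17759 genes. The sums share libraries and depth, and these values are descriptions.

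Of 34 other p53 target genes, 9 of 28 tested in Sertoli cells were called higher and 2 lower, where 7.51% of all genes were called higher and 17.2% lower. The 4 with the largest folds were Psrc1 (12.9, 16.7, 0 and 1.45 CPM), Btg2, an antiproliferative gene (182, 123, 27.2 and 18.8 CPM), Zmat3 (29.97, 21.1, 4.67 and 2.90 CPM) and Fas, the death receptor (23.4, 15.2, 2.72 and 4.34 CPM). Both TO libraries were above both testis libraries in each of them.
Outside Sertoli cells, none of 27 was called in Leydig cells and none of 24 in spermatogonia-like cells, 2 of 26 were higher and 2 lower in stroma, and 3 of 23 were lower in macrophages. Of all genes, 0.262% were called higher and 0.656% lower in Leydig cells, and 0.206% and 8.58% in spermatogonia-like cells. In stroma these shares were 2.45% and 17.3%, and in macrophages 2.56% and 12.9%. In spermatocyte-like cells 5 of 20 were higher and 1 lower, where 10.5% of all genes were called higher and 19.2% lower.
In stroma the higher ones were Btg2 (2.30 ± 0.32, adjusted p 0.00163) and Fas, at 33.9, 48.6, 12.1 and 13.5 CPM (1.74 ± 0.29, adjusted p 0.00350). Ppm1d, the phosphatase that switches p53 signalling off, fell in stroma (-1.97 ± 0.23, adjusted p 0.000811), in macrophages (-2.42 ± 0.27, adjusted p 6.80e-05) and in spermatocyte-like cells (-1.90 ± 0.22, adjusted p 0.000846). Its level in testis spermatid-like cells was 552 and 374 CPM, above the 176 and 141 CPM of testis macrophages, and the part of free spermatid RNA was not tested.
In spermatocyte-like cells the 4 with the largest rise were Rrm2b, a ribonucleotide reductase subunit, at 77.5, 101, 16.5 and 16.7 CPM (2.25 ± 0.27, adjusted p 0.000930), Plk2 (2.21 ± 0.41, adjusted p 0.00444), Sesn2 (1.97 ± 0.42, adjusted p 0.00750) and Ddb2, a DNA damage recognition gene, at 404, 558, 128 and 93.4 CPM (1.93 ± 0.30, adjusted p 0.00232). The TO libraries were clear of the testis libraries for all 4. TO and testis cells filled the spermatocyte-like clusters unequally, and the part of this in the values was not tested.

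Among p53 and its regulators (12 genes), 3 of 10 tested rose in spermatocyte-like cells and 1 fell, where 10.5% of all genes were called higher and 19.2% lower. Those that rose were the checkpoint kinases Chek1, at 59.1, 49.3, 9.66 and 11.0 CPM (2.19 ± 0.27, adjusted p 0.000921), and Atm, at 240, 271, 63.4 and 40.1 CPM (2.11 ± 0.30, adjusted p 0.00160), and the deacetylase Sirt1 (1.01 ± 0.21, adjusted p 0.00655). TO and testis cells filled the spermatocyte-like clusters unequally, and the part of this was not tested. No other type had a gene of this list called higher, and 1, 0, 2, 1 and 0 were called lower in Sertoli cells, Leydig cells, stroma, macrophages and spermatogonia-like cells. The shares of all genes called lower in these types were 17.2%, 0.656%, 17.3%, 12.9% and 8.58%. Ppm1d stands on this list too and is each of the listed genes called lower, except Chek2 in stroma. Trp53, the gene of p53 itself, named after its values were seen, was called in none of the 5 types where it could be tested, which leaves out spermatocyte-like cells. In Leydig cells it stood at 195, 228, 73.9 and 86.2 CPM (1.25 ± 0.22, adjusted p 0.0245).

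Of the 13 other BCL2 family genes, 5 of 10 tested were called higher in Sertoli cells and 2 of 10 in macrophages, where 7.51% and 2.56% of all genes were. In macrophages these were Bcl2a1b, an anti-apoptotic gene, at 304, 497, 16.5 and 62.5 CPM (3.54 ± 0.50, adjusted p 0.000316), and Bcl2l1, which encodes the anti-apoptotic BCL-XL, at 134, 124, 55.1 and 36.8 CPM (1.65 ± 0.29, adjusted p 0.00151). Members of the list named in Sertoli cells were the BH3-only gene Hrk (4.72, on 15.3, 11.1, 0.778 and 0 CPM), the anti-apoptotic Bcl2 (2.66), Bid (2.08) and Bok (2.04), so genes that promote and genes that block apoptosis were both among them. Bad, a BH3-only gene, fell in spermatocyte-like cells (-2.82 ± 0.31, adjusted p 0.000621), where 19.2% of all genes were called lower. No gene of the list was called in Leydig cells, stroma or spermatogonia-like cells.
Of 14 caspases, their activators and inhibitors, 5 were called higher and 1 lower in Sertoli cells, 4 higher and 1 lower of 11 tested in spermatocyte-like cells, and 2 higher and 1 lower in stroma. The shares of all genes called higher and lower in these types were 7.51% and 17.2%, 10.5% and 19.2%, and 2.45% and 17.3%. Those higher in spermatocyte-like cells included the apoptosome gene Apaf1 (1.91 ± 0.30, adjusted p 0.00227), Cycs (1.68 ± 0.28, adjusted p 0.00300) and the inhibitor Xiap (1.54 ± 0.29, adjusted p 0.00512). The part of the unequally filled spermatocyte-like clusters was not tested here either. In stroma the higher ones were Birc2 and Birc3, both inhibitors of apoptosis. Apaf1 is counted among the p53 targets as well. None of 14 was called in Leydig cells and none of 11 in spermatogonia-like cells, while 1 of 13 was lower in macrophages, where 12.9% of all genes were.

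**Figure D4:**
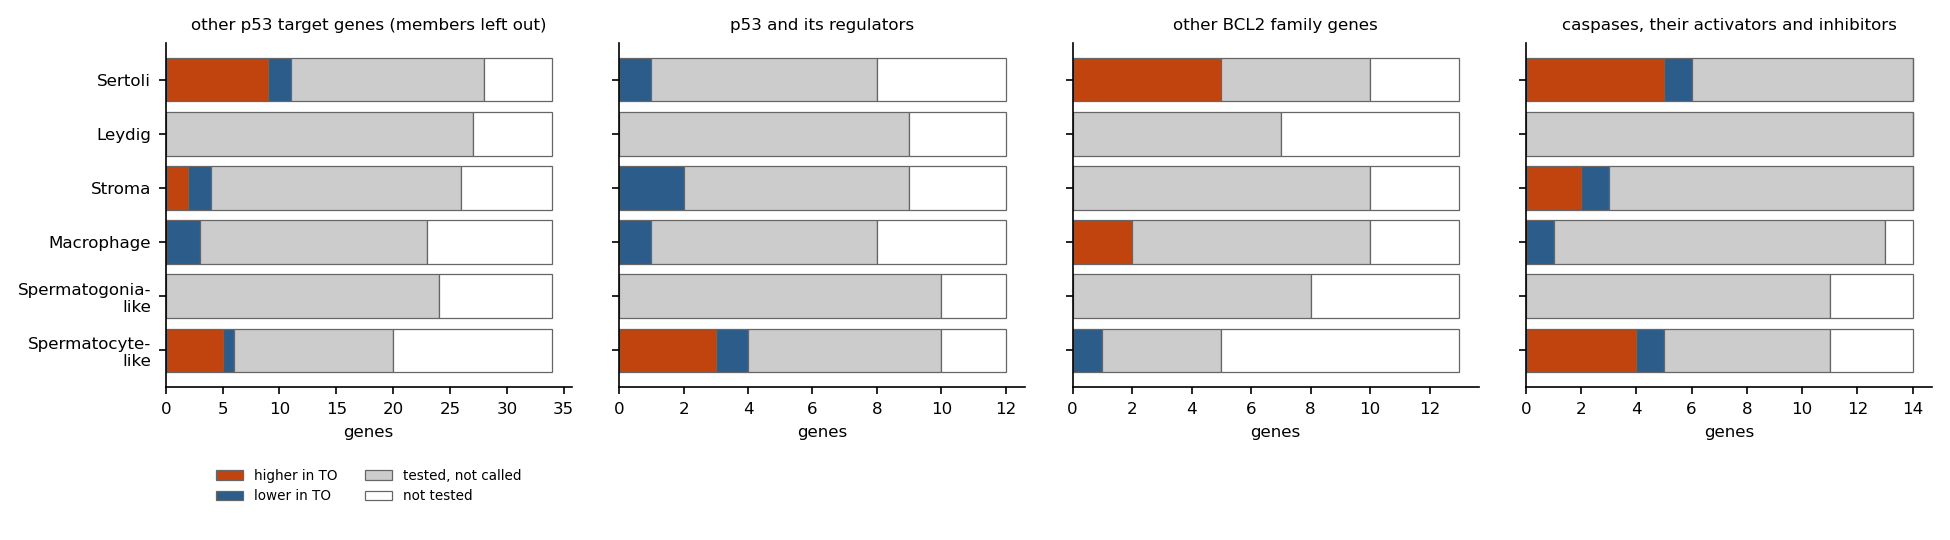
Number of genes (horizontal axis) of 4 lists that were called higher in TOs, called lower, tested without a call or not tested in each of 6 cell types. Of 34 other p53 targets, 9 were higher in Sertoli cells, 2 in stroma and 5 in spermatocyte-like cells, where 7.51%, 2.45% and 10.5% of all genes were. None was higher in Leydig cells, macrophages or spermatogonia-like cells.

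Paralogs of the members (8 genes) gave 2 of 6 higher in Sertoli cells and 1 of 6 higher in macrophages, where Phlda1 stood at 86.2, 23.9, 2.75 and 4.81 CPM (4.01 ± 0.81, adjusted p 0.00390). In spermatogonia-like cells Phlda2 fell (-2.62 ± 0.41, adjusted p 0.00143), at 3.25, 4.30, 16.8 and 29.1 CPM. Of 6 other cyclin-dependent kinase inhibitors, Cdkn1c rose in stroma (1.37) and Cdkn2d fell in Sertoli cells (-1.23) and spermatocyte-like cells (-1.17). Immediate-early genes were called higher for 5 of 6 in Sertoli cells, 3 of 10 in stroma, 1 of 9 in macrophages and 0 of 10 in Leydig cells, and none could be tested in germ cells. For each list of this paragraph, the shares of all genes called higher were 7.51% in Sertoli cells, 2.45% in stroma and 2.56% in macrophages. They were 0.262% in Leydig cells, 0.206% in spermatogonia-like cells and 10.5% in spermatocyte-like cells. The shares called lower were 17.2%, 17.3%, 12.9%, 0.656%, 8.58% and 19.2% in the same order. Of 5 cell division genes, Ccnb1 fell in Leydig cells (-2.70 ± 0.26, adjusted p 0.00888) and spermatocyte-like cells (-1.92), where Mki67 (1.69) and Top2a (1.31) rose, and Birc5 (-3.39) and Cdk1 (-1.20) fell in stroma. In Sertoli cells 1 of the 2 that could be tested was lower, Birc5 (-3.25). The 4 red cell genes could be tested in no type, and of 6 spermatid genes only Odf1 could, which was lower in all 6 types.

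**Figure D5:**
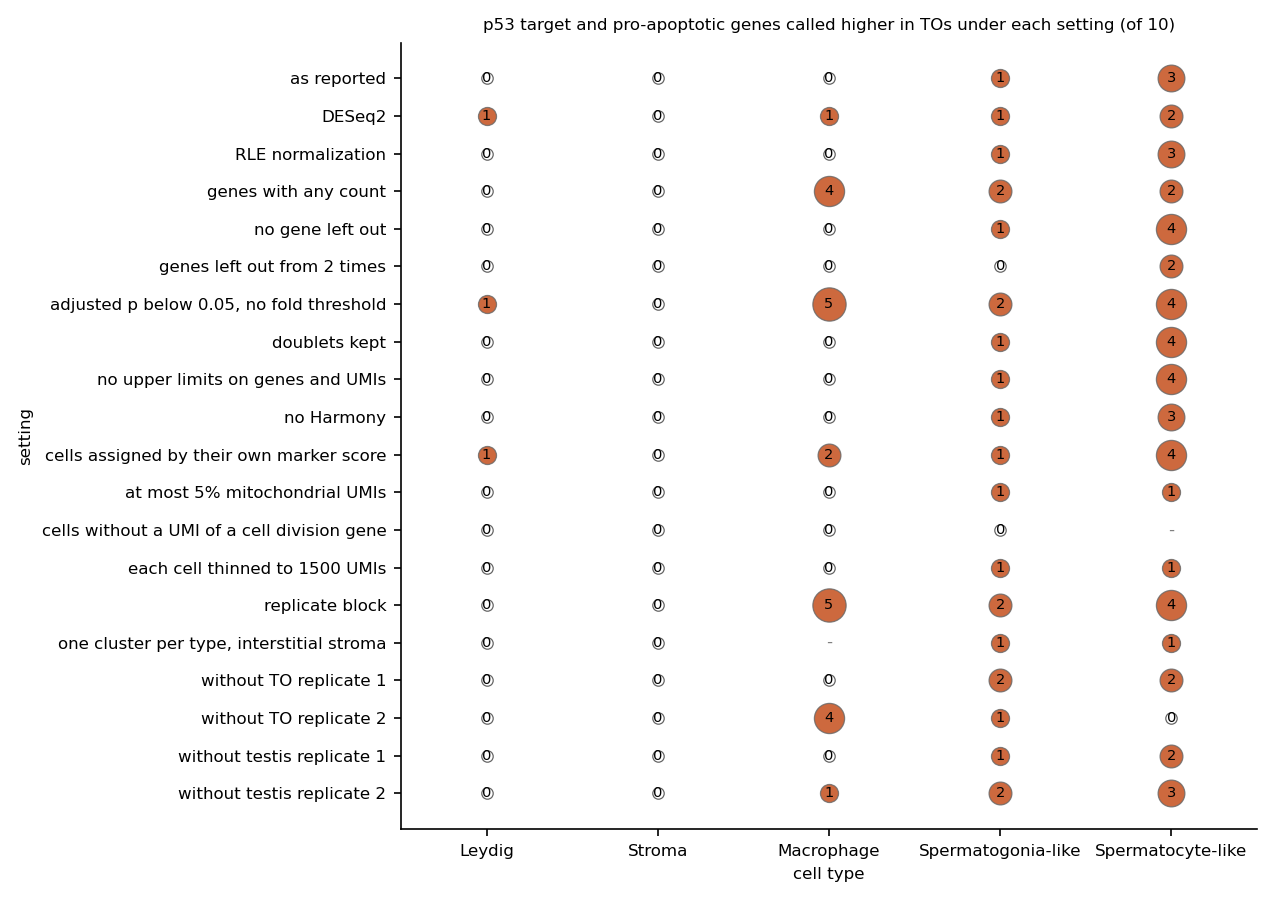
Number of the 10 genes called higher in TOs (printed in each circle, whose area grows with it) in 5 cell types under the reported setting and each alternative, with a dash where no value could be computed. In the settings with all 4 libraries, stroma stayed at 0, macrophages ran from 0 to 5 and spermatocyte-like cells from 1 to 4. The share of all genes called higher moved as well. It ran from 1.25% to 9.84% in stroma, from 1.55% to 6.26% in macrophages and from 0.406% to 22.6% in spermatocyte-like cells.

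The genes lie on 10 different positions of GRCm38 (GENCODE vM21), Bbc3 at chr7:16308393-16318205 (plus strand), Bax at chr7:45461697-45466898 (minus), Gadd45a at chr6:67035096-67037457 (minus), Cdkn1a at chr17:29090976-29100727 (plus), Mdm2 at chr10:117688875-117710758 (minus), Trp53inp1 at chr4:11156431-11174379 (plus), Ccng1 at chr11:40748552-40755311 (minus), Phlda3 at chr1:135766119-135769136 (plus), Eda2r at chrX:97333840-97377216 (minus) and Bik at chr15:83526862-83544634 (plus). Exons of Gadd45a overlap those of E230016M11Rik on the other strand. Exons of Bax overlap those of Gm45808, a protein-coding gene on the same strand, and exons of Cdkn1a those of AC167363.2 on the other strand. Neither Gm45808 nor AC167363.2 is in the count tables.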

How the data were processed

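The authors processed the reads with Cell Ranger 7.1.0 (build mm10 in the submitters' processing notes) and deposited raw UMI counts per gene and barcode, with tables of barcodes and genes, before doublet removal or normalization. Single-cell RNA-seq of 2 TO and 2 testis libraries was analysed, grouped by their titles. Scrublet (scanpy 1.11.5) removed the highest-scoring 0.8% of barcodes per 1000 in each library. DoubletFinder, which the study used, was not used here. UMIs were scaled to 10000 per cell, and 2000 variable genes without the members, 30 principal components (20 for germ cells), Harmony as rewritten here and Leiden clusters (leidenalg 0.10.2, igraph 0.11.9, 20 neighbours, resolution 1) followed. Clusters took the name of the best-scoring marker list, provided that 3 or more of its markers reached 10% of the cells and that the 10 leading genes held no more markers of a different type. These names are rebuilt, which can make values differ from the study's. Free RNA was not subtracted.

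Raw UMIs were summed per library and type and tested with edgeR 4.0.16 in R 4.3.3 (quasi-likelihood, TMM, filterByExpr), with limma 3.58.1 and DESeq2 1.42.0 as an alternative. A type needed 10 cells in each library. The edgeR steps were tested on simulated data with 200 changed genes. With 2 libraries against 2, an exact two-sided permutation test of a single value cannot go below p = 0.333, so none is given. Intervals of pooled ratios are exact, at 95%, and cover counting error only. Gene positions came from GENCODE vM21, in which 32158 of 32285 gene IDs were found, and promoters from RefSeq.

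The members and all gene lists were chosen with earlier results of these data known. All 10 members were named in each type, and of each list the called genes, at most the 4 with the largest absolute log2 fold change per type, together with the 5 genes most like the members' mean (log2(CPM + 1), genes of at least 10 CPM in 1 sum). The values of a listed gene that the rule names are not reported here. Alternatives were another tool or normalization, other filters on genes and cells, no Harmony, other cell assignment, thinning to 1500 UMIs per cell, a replicate block and leaving out each library. Python 3.11.15 was used with matplotlib 3.10.9, scikit-learn 1.9.0, scipy 1.17.1, pandas 2.3.3 and numpy 2.4.6.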

Additional observations from a re-analysis of the deposited data

Results flagged for a closer look

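The change of TO over testis differed between Leydig cells, stroma, macrophages, spermatogonia-like and spermatocyte-like cells for 7 of the 10 members, by the joint test of the cell type by condition terms (edgeR, adjusted over all genes). The adjusted p was 0.0401 for Bbc3, 0.0013 for Bax, 0.00102 for Gadd45a, 0.000667 for Cdkn1a, 0.000587 for Mdm2, 0.00253 for Ccng1 and 0.027 for Phlda3, where 44.5% of all genes passed the same threshold. Fitted changes ran from 0.03 to 1.90 for Bbc3 over the types where it was tested outside Sertoli cells, from 0.00 to 1.47 for Bax, from -0.58 to 3.10 for Gadd45a, from -0.94 to 0.25 for Mdm2, from -0.36 to 2.31 for Ccng1 and from -0.63 to 0.53 for Phlda3. Cdkn1a was tested in Leydig cells (1.11) and macrophages (2.79), the latter with 326 CPM in TO replicate 1 and 55.2 CPM in TO replicate 2. The joint test left out no gene, so its p also rests on types that these ranges omit. For Phlda3 these were macrophages and spermatocyte-like cells (pooled ratios 34.8 and 2.30), and for Bbc3 spermatocyte-like cells (1.32). For Cdkn1a they were stroma, spermatogonia-like and spermatocyte-like cells (0.375, 0.560 and 3.33).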

How the results depend on the processing

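The number of members called higher in stroma was 0 under each alternative. In Leydig cells it was 0 as reported and 1 (Bbc3) with DESeq2, with adjusted p below 0.05 and no fold threshold, and with cells assigned by their own marker score (3.10%, 3.44% and 2.08% of all genes against 0.262%). In macrophages it was 0 as reported, 1 with DESeq2, 4 with genes of any count, 5 with adjusted p below 0.05 and 2 with the marker score, where the share of all genes called higher was 2.56%, 2.26%, 3.84%, 6.26% and 3.16%. In spermatogonia-like cells it was 1 as reported, 2 with genes of any count and with adjusted p below 0.05, and 0 with genes left out from 2 times the CPM of other cells and in cells without a UMI of a cell division gene (0.206% of all genes as reported, then 0.669%, 1.85%, 0.0106% and 0.121%). In spermatocyte-like cells it was 3 as reported and 1 each with at most 5% mitochondrial UMIs, with cells thinned to 1500 UMIs and in 1 cluster, an alternative chosen after seeing the data, where the share of all genes fell from 10.5% to 0.792%, 2.06% and 0.406%. Mdm2 was called lower there with genes left out from 2 times, doublets kept or adjusted p below 0.05. The cause was not tested. With 1 library left out, the members' median log2 fold change ran from 0.16 to 0.62 in Leydig cells, 0.27 to 0.63 in stroma and 0.96 to 1.76 in macrophages. It ran from -0.13 to 0.32 in spermatogonia-like and 1.58 to 1.89 in spermatocyte-like cells. The number called in macrophages, spermatogonia-like and spermatocyte-like cells changed with the library left out, where the lone library is assumed to vary like the others. With a replicate block the counts were 5 in macrophages, 2 in spermatogonia-like and 4 in spermatocyte-like cells (5.48%, 0.824% and 12.7% of all genes). The replicate numbers are only shared names, and same-numbered deviations correlated at -0.02 to 0.21. No fold of a single gene outside Sertoli cells reversed a call. Of 687 such values, 598 kept both their sign and whether they were called, which says nothing about how far they moved. No value could be computed for spermatocyte-like cells without division genes and for macrophages in 1 cluster.
Depth limits the low members: Bbc3, Bik, Ccng1, Eda2r, Gadd45a, Phlda3 and Trp53inp1 each rest on fewer than 10 UMIs in at least 1 testis sum.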
